A study of Mus musculus with 3 samples.

Results

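The regions described here are the Twist1 peaks of mouse peripheral nerve sheath tumor (PNST) cells that were found in no other tissue and that lay close to a gene. They were selected on the deposited peak lists by 3 measured values, namely a position on an assembled chromosome, an overlap of less than 5% of the peak length with every ECC and limb bud peak, and a distance of at most 5000 bp to a gene named in the list. By this rule 947 of the 7538 PNST peaks were members, or 947 of the 7259 PNST peaks on assembled chromosomes (13%), out of 67468 peaks in the 3 lists together. No member had even 1 base in common with an ECC or limb bud peak. The other 5086 PNST only peaks on assembled chromosomes lay over 5 Kb from a gene, and 295 PNST peaks within 5 Kb of a gene were shared with ECCs or limb buds.

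The study compared genomic occupancy of Twist1 by ChIP-seq in 3 samples, 1 for each tissue, without replicates. All were immunoprecipitated with the same anti-Twist1 antibody and all are of the FVB/N strain per the labels. PNST cells are a tumor cell line grown in DMEM with 10% FBS and collected at 80% confluency, and cells of 2 culture plates were pooled. ECCs came from wild-type endocardial cushions of the atrioventricular canal at E12.5 and limb buds from wild-type forelimbs at E10.5, each pooled over litters. The genotype of the line was not given in the labels, and no expression was measured in these files, so that the named cell type could not be checked against its markers.

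Twist1, a transcription factor of the basic helix-loop-helix class, binds DNA as a dimer at E-boxes, short sites of the form 5'-CANNTG-3', and it is known for its part in epithelial-to-mesenchymal transition and in the migration of mesenchymal and tumor cells. Peripheral nerve sheath tumors arise from the Schwann cell lineage, often after loss of the Ras regulator neurofibromin, and their growth is linked to Ras and MAP kinase signaling and to receptor tyrosine kinases such as Egfr and Met. In ChIP-seq a peak is a place where sequenced fragments, counted as tags, pile up above a local background.

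The PNST list was made from 16760421 tags, of which 11823220 remained after 1 tag was kept at each position. The remaining tags were 3149934 in ECCs and 14893391 in limb buds, so that a peak missing from the ECC list may have been missed at that depth. The limb bud list used here, of 48965 peaks, is several times longer than the one reported in the study's text. The tag totals in the headers also differ from that text. This limb bud list decides which peaks were called PNST only and each share with limb buds. No peak was called with fewer than 7 tags in PNST cells, 5 in ECCs and 8 in limb buds. The 947 members held 8793 tags together (0.0744% of the PNST tags). No control file is recorded in the list headers, although genomic DNA of FVB/N mice served as control according to the study's methods. All shares below carry 95% Wilson intervals, which cover counting error only, and peaks of 1 sample, many of which lie next to each other or share sequence, are not replicates.

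The sequences of the members differ widely in kind, and 11 of them are shown here because the results below turn on them. Each is given 5' to 3' on the plus strand of mm9 with E-boxes in capitals. Klf9 (chr19:23235775-23235973), Mir500 (chrX:6813369-6813600) and Slc7a11 (chr3:50189119-50189251) hold E-boxes, and the last 2 of these are shown to illustrate copies of 1 dispersed repeat on different chromosomes. Cpeb4 (chr11:31822671-31822857) and Efha2 (chr8:41449164-41449302) are simple repeats without an E-box and have the highest and the joint second highest fold enrichment. Arhgap32 (chr9:31939082-31939238), Tnc (chr4:63670780-63670942) and Egfr (chr11:16779373-16779559) are tandem repeats, the last with 1 E-box in each repeat unit. Ext1 (chr15:52939453-52939635), Lama2 (chr10:27042363-27042512) and Spp1 (chr5:104872147-104872261) are less repeated peaks near genes of the matrix list and of the study's own lists discussed below.
Klf9: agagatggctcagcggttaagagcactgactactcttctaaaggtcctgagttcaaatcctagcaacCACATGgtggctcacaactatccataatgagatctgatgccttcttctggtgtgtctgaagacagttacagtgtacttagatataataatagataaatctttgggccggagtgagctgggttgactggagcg
Mir500: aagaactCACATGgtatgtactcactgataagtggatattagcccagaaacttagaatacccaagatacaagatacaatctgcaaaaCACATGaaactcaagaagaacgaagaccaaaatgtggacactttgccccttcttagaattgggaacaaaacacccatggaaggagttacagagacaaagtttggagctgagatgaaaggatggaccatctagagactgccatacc
Slc7a11: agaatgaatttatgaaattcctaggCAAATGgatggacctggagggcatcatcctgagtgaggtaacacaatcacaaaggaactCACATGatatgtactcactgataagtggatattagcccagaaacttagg
Cpeb4: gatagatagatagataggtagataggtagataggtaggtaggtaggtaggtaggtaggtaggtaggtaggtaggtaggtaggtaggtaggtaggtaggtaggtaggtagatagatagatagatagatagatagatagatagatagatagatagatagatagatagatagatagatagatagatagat
Efha2: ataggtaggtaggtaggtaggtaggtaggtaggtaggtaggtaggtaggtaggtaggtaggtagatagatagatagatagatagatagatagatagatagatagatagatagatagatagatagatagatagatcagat
Arhgap32: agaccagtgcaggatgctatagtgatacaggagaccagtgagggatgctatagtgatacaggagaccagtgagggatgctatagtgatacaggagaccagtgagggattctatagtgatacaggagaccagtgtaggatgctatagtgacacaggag
Tnc: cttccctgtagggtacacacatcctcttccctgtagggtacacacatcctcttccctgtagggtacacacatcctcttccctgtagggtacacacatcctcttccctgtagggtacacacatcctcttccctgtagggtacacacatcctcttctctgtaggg
Egfr: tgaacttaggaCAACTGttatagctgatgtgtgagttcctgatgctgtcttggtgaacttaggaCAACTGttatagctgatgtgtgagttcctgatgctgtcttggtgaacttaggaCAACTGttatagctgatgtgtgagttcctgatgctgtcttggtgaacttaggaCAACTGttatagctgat
Ext1: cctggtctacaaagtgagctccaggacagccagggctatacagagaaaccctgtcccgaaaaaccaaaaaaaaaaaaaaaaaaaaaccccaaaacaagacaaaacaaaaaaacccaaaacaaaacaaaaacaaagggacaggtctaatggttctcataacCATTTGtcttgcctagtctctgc
Lama2: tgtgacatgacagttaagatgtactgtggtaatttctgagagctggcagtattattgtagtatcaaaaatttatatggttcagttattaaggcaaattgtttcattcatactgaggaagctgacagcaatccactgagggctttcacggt
Spp1: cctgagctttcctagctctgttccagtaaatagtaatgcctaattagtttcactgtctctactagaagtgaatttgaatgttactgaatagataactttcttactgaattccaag

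Most of the members were weak and short peaks. They held between 7 and 168 tags with a median of 8 (quartiles 7 and 9), and 641 of 947 (67.7%, interval 64.6 to 70.6) held only 7 or 8 tags, at or next to the fewest tags with which a peak was called. They were 73 to 1615 bp long with a median of 148 bp (quartiles 133 and 166). The longest peaks held the most tags across the 947 members (Spearman correlation 0.66, Pearson correlation 0.945, both counted from the same tags). Fold enrichment, which sets the tag pile-up at the summit against its surroundings, was between 3.25 and 51.58 with a median of 15.17, and 654 members (69.1%) had 1 of only 6 values between 12.14 and 24.27. These steps left little resolution between single members. All PNST peaks on assembled chromosomes had medians of 8 tags, 149 bp and a fold enrichment of 15.17, and 60.5% of them held 7 or 8 tags. Small tag counts and short lengths were thus not particular to the members. GC content had a median of 41.9% in the members, compared to 40.2% in PNST only peaks over 5 Kb from a gene and 50% in shared peaks near genes.

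The members were weaker than the PNST peaks near genes that were shared with another tissue. A p-value of 1e-10 or smaller was reached by 30 of 947 members (3.17%, interval 2.23 to 4.49), against a background of 7.27% of all PNST peaks on assembled chromosomes. The share was 1.38% (70 of 5086, interval 1.09 to 1.74) in PNST only peaks over 5 Kb from a gene and 34.2% (101 of 295, interval 29.1 to 39.8) in the shared peaks near genes. Shared peaks near genes had a median of 9 tags and a fold enrichment of 18.21, and 21.7% of them had at least 20 tags (64 of 295, interval 17.4 to 26.7), compared to 2.75% of the members (26 of 947, interval 1.88 to 3.99). Whether a region was shared was itself decided from called peaks, so these differences are given without a test. Of the ECC only and limb only peaks within 5 Kb of a gene there were 1382 and 7940, with medians of 5 and 9 tags from samples of other depths.

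Nearly all of the members lay in sequence that occurs more than once in the mouse genome. For each peak, the share of its 32-base words with another copy in mm9 was counted on both strands. All words were repeated in 614 of 947 members (64.8%, interval 61.7 to 67.8), and at most 50% were repeated in 23 (2.43%, interval 1.62 to 3.62). The median member had words with 147 copies in the genome. Among all PNST peaks on assembled chromosomes, all words were repeated in 66.0% (4789 of 7259), and at most 50% were repeated in 3.88% (282 of 7259). The tags were 50 bp long, so that a repeated word of 32 bases does not by itself make a tag ambiguous. How reads with several matches were handled is not given in the sources used here, and the part of repeats in the results below was not tested.

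The members fell into several kinds of repeated sequence. A peak was called a tandem repeat when at least 50% of its 32-base words recurred within the peak or 1 Kb to its side, and a simple repeat when the copies were at most 6 bp apart. The other peaks were called dispersed when over 50% of their words had copies elsewhere, and mostly single copy otherwise. Only exact copies were counted and no repeat annotation was used, so that diverged or interrupted repeats can be called mostly single copy. Tandem repeats held 150 of 947 members (15.8%, interval 13.7 to 18.3), against 202 of 5086 PNST only peaks over 5 Kb from a gene (3.97%, interval 3.47 to 4.54) and 57 of 295 shared peaks near genes (19.3%, interval 15.2 to 24.2). Simple repeats held 8 members (0.845%), dispersed repeats of 100 or more copies 512 (54.1%, interval 50.9 to 57.2) and dispersed repeats of fewer copies 254 (26.8%, interval 24.1 to 29.7). Of all PNST peaks on assembled chromosomes 6.998% were tandem repeats, 1.85% simple repeats, and 58.6% and 28.6% dispersed repeats of more and fewer copies, so that the dispersed shares of the members were near those of all peaks. The spacing of copies in the tandem repeats had a median of 34 bp and was between 9 and 712 bp, and these members named 119 genes.

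**Figure D1:**
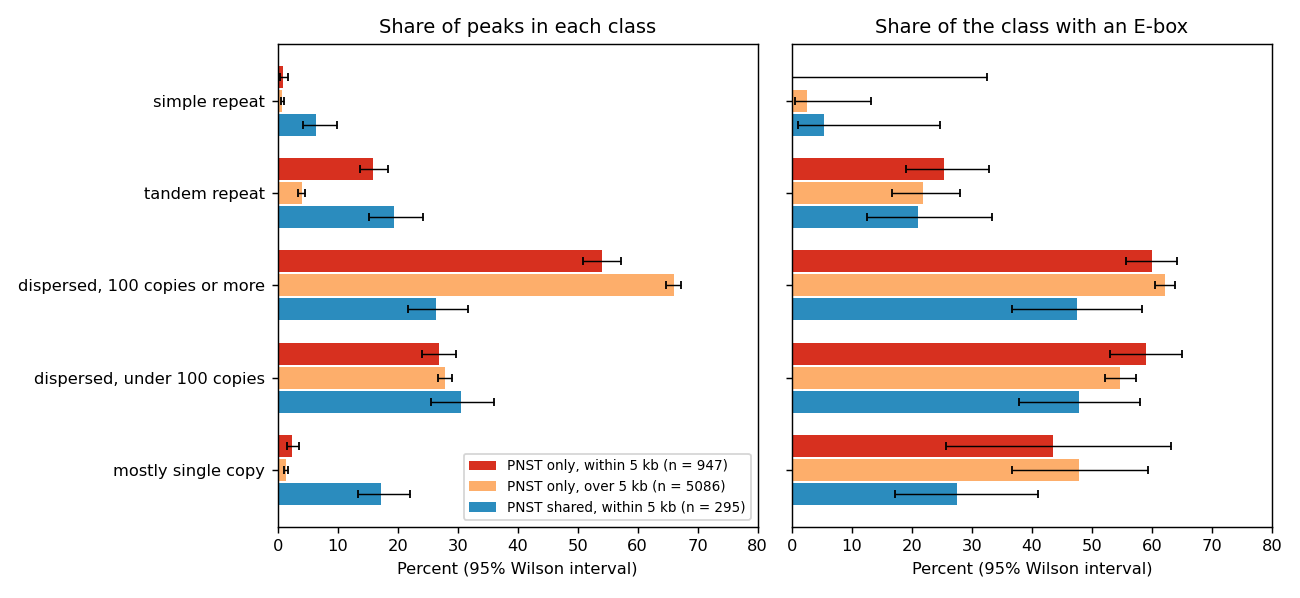
Share of peaks in each class of repeated sequence (left) and share of each class with an E-box (right), in percent with 95% Wilson intervals, for 947 PNST only peaks within 5 Kb of a gene, 5086 over 5 Kb away and 295 shared PNST peaks within 5 Kb. Tandem repeats made up 15.8% of the first group and 3.97% of the second, and in every group fewer tandem repeats than dispersed repeats held an E-box.

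The strongest members were mostly tandem repeats. Of the 30 members of p 1e-10 or smaller, 27 were tandem repeats, 1 was a simple repeat and none was mostly single copy. Tandem repeats also held 19 of the 26 members with at least 20 tags, and they had a median of 10 tags, compared to 7.5 in dispersed repeats of 100 or more copies. Among the 789 members that were neither tandem nor simple repeats, 2 (Klf9 and 6230409E13Rik) reached this p-value and 6 held at least 20 tags. Among PNST only peaks over 5 Kb from a gene, 30 of the 70 peaks of p 1e-10 or smaller were tandem repeats and 6 were simple repeats.

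**Figure D2:**
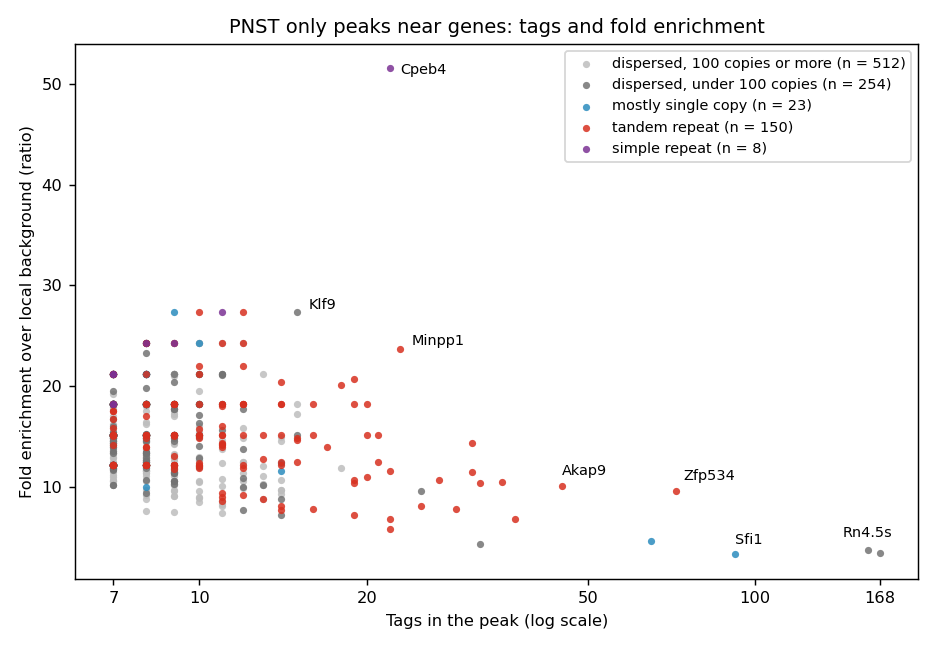
Tags (log scale) against fold enrichment for each of the 947 PNST only peaks within 5 Kb of a gene, coloured by class of repeated sequence. Most points lie at 7 to 9 tags, Cpeb4 stands alone at a fold enrichment of 51.58, and the peaks of Rn4.5s and Sfi1 have the most tags with fold enrichments under 4.

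Of the 10 members with the most tags, most lay in repeated sequence. The peaks of Rn4.5s, which names the noncoding 4.5S RNA, held 168 and 160 tags on chromosome 6, with fold enrichments of 3.42 and 3.73 and 17 copies of the median word. They were 1615 and 1354 bp long and 63271 and 79058 bp from the nearest TSS of a protein-coding transcript. Other Rn4.5s peaks of PNST cells were left out by the rule, since 6.51% and 10.1% of their length was overlapped by a peak of another tissue. The member with 168 tags was 826 bp from the nearest ECC peak and 1217 bp from the nearest limb bud peak. Rn4.5s was also named within 5 Kb by 9 ECC and 10 limb bud peaks.

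Sfi1, a gene for a centrosomal protein, held 92 tags in intron 12 at the lowest fold enrichment of all members (3.25). A neighbouring peak named for Eif4enif1, which encodes a transporter of the translation factor eIF4E, held 65 tags at a fold enrichment of 4.56. These peaks on chromosome 11 (chr11:3053615-3054405 and chr11:3099500-3100065) were the only mostly single copy members with at least 20 tags, and 0.790% and 0% of their words were repeated in mm9. The Sfi1 peak was 643 bp from an ECC peak. Within 5 Kb, Sfi1 was also named by 8 ECC and 8 limb bud peaks, and Eif4enif1 by 0 and 1. A peak between Speer4e and Speer8-ps1, of a family of spermatogenesis-associated genes, held 32 tags and was 58 bp from an ECC peak and 29 bp from a limb bud peak.

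Zfp534, a zinc finger gene, held 72 tags and Zfp617, of the same class, held 21 tags. Both summits lay in coding exons and both sequences had copies at a spacing of 84 bp, the length of 1 zinc finger and its linker. Akap9, which anchors protein kinase A at the centrosome and Golgi, held 45 tags in intron 33 in a repeat of 44 bp, at a fold enrichment of 10.07. Cd247, the zeta chain of the T cell receptor, held 31 tags in intron 7 in a repeat of 54 bp, and A2m, a protease inhibitor of plasma, held 27 tags in intron 14 in a repeat of 42 bp. Minpp1, an inositol polyphosphate phosphatase, combined 23 tags with a fold enrichment of 23.71 in intron 4.

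By fold enrichment the members were led by Cpeb4, which encodes a regulator of mRNA polyadenylation. Its peak in intron 4 held 22 tags with a fold enrichment of 51.58 and the highest score of the members (212.08, where 100 stands for a p-value of 1e-10). It is a run of tetranucleotides whose words had a median of 1424 copies. The peak in intron 7 of Efha2, a gene of the mitochondrial calcium uptake family, shared an identical run of 133 bases with it and held 11 tags. Fold enrichment was 27.31 at Efha2 and also at Klf9 (15 tags, intron 1), Arhgap32 (12 tags, intron 2), Pld1 (10 tags, intron 23) and Ccdc146 (9 tags, intron 7). Klf9 encodes a Krüppel-like transcription factor, Arhgap32 a GTPase-activating protein and Pld1 a phospholipase D. The next members by this order were Anxa7 and Mir500 with 12 tags and Ktn1 and Olfr288 with 11 tags, all at 24.27, a value shared by 21 members. The summit of the Mir500 peak lay in intron 3 of Clcn5, a chloride channel gene that is not the one named in the list.

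Some genes were named by several members. Of 870 genes, 799 were named by 1 member, 58 by 2 and 13 by 3 to 5. Cenpo, a centromere protein gene, had 4 peaks with 19 to 32 tags within 2194 bp of intron 3, and D15Ertd621e had 4 peaks with 22 to 37 tags within 2036 bp of intron 15. Dennd2c, of the DENN domain family of Rab exchange factors, had 3 peaks with 8 to 15 tags within 1244 bp of intron 4. Each of these 3 genes thus had its peaks in 1 stretch of tandem repeats, and merging members within 200 bp of each other left 920 regions.

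**Figure D3:**
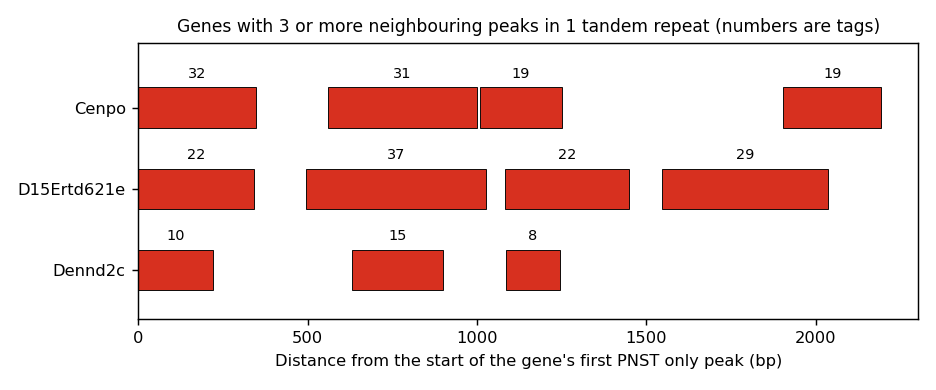
PNST only peaks of 3 genes with 3 or more members in 1 stretch of tandem repeats, drawn to scale by their distance from the start of the first peak in bp, with the tags of each peak above it. Cenpo has 4 peaks of 19 to 32 tags within 2194 bp, and the peaks of each gene stand next to each other.

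A further 8 genes with 3 members had their peaks spread over 16270 bp or more, and each of these peaks held 7 to 11 tags. Hecw1, a ubiquitin ligase of the NEDD4 family, had peaks in introns 26, 7 and 3 over 135895 bp with fold enrichments of 15.17 to 19.8. Mycbp2, a ubiquitin ligase known for axon and synapse growth, had peaks over 191758 bp with a highest fold enrichment of 21.24, and Rabgap1l, a GTPase-activating protein of Rab proteins, over 379158 bp. Dync2h1 and Dnahc9, dynein heavy chains of cilia, had peaks over 160668 and 145874 bp, and Lyst, a regulator of lysosome traffic, over 63243 bp. The remaining genes were Cd200r4, a receptor gene of immune cells, and 5033411D12Rik.

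Peaks near genes were largely inside them. A summit lay within a named gene in 712 of 947 members (75.2%, interval 72.3 to 77.8), and 717 members had the same gene named on both sides. Summits were in introns of protein-coding genes in 695 members (73.4%, interval 70.5 to 76.1), against 27.4% of all PNST peaks on assembled chromosomes and 68.1% (201 of 295, interval 62.6 to 73.2) of the shared peaks near genes. The rule selects for this, because the deposited distance was not measured to a TSS. Of 1855 distances of members to an annotated gene, 83.7% equalled the distance from the peak start to the lowest coordinate of an exon or coding segment and 5.66% that to a TSS. A summit lay within 5 Kb of a TSS of a protein-coding transcript in 257 members (27.1%, interval 24.4 to 30.1). It lay within 1 Kb in 20 (2.11%, interval 1.37 to 3.24), and the median distance to such a TSS was 15085 bp. These shares were 6.21% and 0.771% in all PNST peaks on assembled chromosomes, and 32.5% and 4.75% in shared peaks near genes.

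Of all PNST peaks on assembled chromosomes 0.468% had a summit in a coding exon, and of shared peaks near genes 1.69%. In the members, coding exons held 18 summits (1.90%, interval 1.21 to 2.98). They included 5 in vomeronasal receptor genes with 7 to 9 tags, and others such as Actg1, which encodes a cytoplasmic actin, Rps27a, a ribosomal protein gene, and Tmcc1, an endoplasmic reticulum protein whose peak had no repeated word. Non-coding exons or UTRs held 7 summits (0.739%, against 0.248% of all PNST peaks on assembled chromosomes). Promoters, up to 1 Kb upstream of a TSS, held 4 (0.422%, against 0.248%). With all gene types in place of protein-coding genes these counts were 16 and 19. The promoter peaks were those of Prl2c5, a prolactin family hormone (13 tags), Trap1, a mitochondrial chaperone, Rsph9, a cilium protein, and Spink8, a protease inhibitor (7 tags each).

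At the distance limit, the members nearest to 5000 bp were peaks of Sv2b (4999 bp), Fam69a (4998 bp) and Cdk13 (4984 bp) with 7 tags each. The nearest PNST only peaks outside it were those of Zfp961 (5004 bp, 7 tags), Grk4 (5009 bp, 11 tags) and Ang4 (5017 bp, 9 tags). At the overlap limit, the nearest peak left out was that of Tex28, of which 5.10% was overlapped by a peak of another tissue (8 tags). A limit of 1 Kb gave 186 members and one of 10 Kb gave 1479.

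An E-box (CANNTG, which reads the same on both strands) was present in 505 of 947 members (53.3%, interval 50.1 to 56.5), close to the background of 54% in all PNST peaks on assembled chromosomes. The share was 57.8% (2940 of 5086, interval 56.4 to 59.2) in PNST only peaks over 5 Kb from a gene and 36.3% (107 of 295, interval 31 to 41.9) in shared peaks near genes. In peaks of 133 to 166 bp it was 56.2% of the members (273 of 486) and 55.4% of all PNST peaks on assembled chromosomes (1923 of 3473). The share was 25.3% in tandem repeats (38 of 150, interval 19.0 to 32.8), 0 of 8 in simple repeats, and 59.2% in the remaining members (467 of 789, interval 55.7 to 62.6). An E-box within 50 bp of the summit was found in 378 members (39.9%, interval 36.8 to 43.1). This was close to the 39.2% of all PNST peaks on assembled chromosomes, and the share was 42.5% in PNST only peaks over 5 Kb from a gene.

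Among the kinds of E-box, CAGATG or CATCTG was found in 138 members (14.6%), CACCTG or CAGGTG in 85 (8.98%), CATATG in 45 (4.75%), CAGCTG in 37 (3.91%) and CACGTG in 9 (0.95%). In PNST only peaks over 5 Kb from a gene the shares were 16.3%, 9.63%, 4.88%, 2.06% and 0.904%. The interval for CAGCTG (2.85 to 5.34 in members, 1.71 to 2.49 in the distant peaks) did not overlap between these groups, and those for the other 4 kinds did. CAGCTG was found in 2.66% of all PNST peaks on assembled chromosomes (interval 2.31 to 3.05), which overlaps the interval of the members, and in 3.39% of shared peaks near genes. A pair of E-boxes 5 bases apart was found in 2 members (0.211%) and in 11 of 7259 PNST peaks (0.152%). Of the 30 members of p 1e-10 or smaller, those at Cpeb4, Cd247, Minpp1, Adsl, Adcy7, Fam135a and A2m held no E-box, while the Zfp534 peak held 19 and the Akap9 peak 7.

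Repeats also joined members of different genes. A 32-base word was shared with another member by 752 of 947 members (79.4%), and 213 members fell into 79 families in which members shared at least 50% of their words. The largest family had 16 members of 7 to 15 tags on 11 chromosomes. An E-box was present in 12. Their genes included Gabrg1, a GABA receptor subunit, Rtn1, a reticulon of neurons, Ift57, a protein of intraflagellar transport, and Cdkal1, a tRNA-modifying enzyme. The peaks of Slc7a11 and Mir500 printed above shared an identical run of 41 bases, which itself holds no E-box. In both peaks a CACATG stands 1 base before this run.

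Genes of nerve sheath tumors were considered next. Of 14619 genes named anywhere in the 3 lists, 870 were named by a member within 5 Kb (5.95%), and this share is the background for each list of genes below. Genes named by members were longer than all genes (median span 60300.5 bp against 25054 bp, and 18 against 12 exons). Of 28 genes known from nerve sheath tumors and tumor suppression, 3 were named, namely Egfr, Met and Ctnnb1 (10.7%, interval 3.71 to 27.2), while Nf1, Trp53, Cdkn2a and Suz12 were not. The 3 genes had no ECC or limb bud peak within 5 Kb. The same held for 42.4% of the 870 genes named by members and 54.0% of all 14619 genes.

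Egfr, the epidermal growth factor receptor, was named by 2 peaks in intron 13 with 10 and 15 tags and fold enrichments of 12.33 and 12.49. Both lay in a tandem repeat of 53 bp, each held 4 E-boxes of the form CAACTG, and the 187 bases of the shorter peak were all found in the longer one. Met, the receptor of hepatocyte growth factor, was named by a peak of 7 tags in intron 3 and a peak of 11 tags in intron 11, and the latter lay in a tandem repeat of 40 bp. Neither Met peak held an E-box. Ctnnb1, which encodes beta-catenin of cell junctions and Wnt signaling, was named by a peak of 9 tags and a fold enrichment of 18.21. This peak (chr9:120869110-120869301) lay in a non-coding exon or UTR of Ctnnb1, held no repeated word and no E-box, and lay also within 5 Kb of Ulk4, a kinase gene.

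None of the 23 genes of the Schwann cell lineage and of myelin in the lists was named by a member (0%, interval 0 to 14.3), among them Sox10, Mbp and Erbb3. Within 5 Kb, ECC peaks named 2 and limb bud peaks 4 of these 23 genes, against 12.7% and 41.5% of all 14619 genes. Of 59 regulators of Ras and MAP kinases, 5 were named (8.47%, interval 3.67 to 18.4). Map3k1 and Map3k5, kinases at the top of MAP kinase cascades, had peaks of 8 tags and a fold enrichment of 18.21. The others were Map2k5 (7 tags), the Rap exchange factor Rapgef5 (8 tags) and the adaptor Shc3, with 2 peaks of 7 tags each in intron 4. Map3k2, a further kinase of these cascades that was not on the list and was singled out after its values had been seen, had a peak of 19 tags with a fold enrichment of 18.21 in intron 15, in a tandem repeat of 39 bp.

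Adhesion and matrix genes had small peaks. Of 108 integrins, laminins and matrix genes, 10 were named (9.26%, interval 5.11 to 16.2). Tnc, which encodes tenascin C, had a peak of 10 tags in intron 5 in a tandem repeat of 25 bp. Itgav and Itgb6, integrin subunits, had intergenic peaks of 8 tags, and Matn2, a matrilin, had a peak of 8 tags in intron 13. Lama1 and Lama2, laminin chains of basement membranes, had peaks of 7 tags in introns 36 and 12. The Lama2 peak was the only one of these without a repeated word, and it held no E-box. Adam22, a membrane protein that binds secreted ligands at synapses, had peaks of 8 and 9 tags in intron 26.

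Of 45 cadherins, protocadherins and catenins, 4 were named (8.89%, interval 3.51 to 20.7). Cdh1, the E-cadherin gene that Twist1 is known to repress, had a peak of 8 tags and a fold enrichment of 21.24 in intron 2 in repeated sequence (1499 copies) without an E-box. Cdh10 had a peak of 11 tags with 2 E-boxes in intron 9 and Pcdh9 a peak of 10 tags in intron 1. Cdh1 was also the only one of 32 epithelial-to-mesenchymal transition factors and partners of Twist1 named (3.13%, interval 0.554 to 15.7).

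Of 83 synaptic adhesion and neurite genes, 10 were named (12%, interval 6.68 to 20.8). This list has a median gene span of 334288 bp. The strongest peak was that of Odz3, a teneurin, with 16 tags in intron 11 in a tandem repeat of 28 bp. Chl1, a cell adhesion molecule of the L1 family, had a peak of 12 tags in intron 10, and Magi3, a scaffold of cell junctions, had one of 9 tags in intron 3. The 2 peaks named for Flrt3, a fibronectin leucine-rich transmembrane protein, held 7 and 9 tags and lay in intron 3 of Macrod2, which contains the Flrt3 gene. Of 50 axon guidance genes, only Slit3 and Sema3a were named (4%, interval 1.10 to 13.5), each by a peak of 7 tags.

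In the Wnt pathway 4 of 77 genes were named (5.19%, interval 2.04 to 12.6). Apart from Ctnnb1 these were the secreted agonist Rspo2 (10 tags, fold enrichment 21.24), the receptor Ror1 (7 tags) and the kinase Gsk3b (7 tags). In the TGF-beta and BMP pathway 4 of 56 genes were named (7.14%, interval 2.81 to 17.0), namely the latent TGF-beta binding protein Ltbp1 (9 tags), the coreceptor Tgfbr3 (8 tags), the receptor Acvr1 (7 tags) and the ligand Bmp8b (7 tags).

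Among signaling genes, 7 of 40 genes of cyclic nucleotide signaling were named (17.5%, interval 8.75 to 32), and all 7 also had an ECC or limb bud peak within 5 Kb. Such a peak was present for 57.6% of the 870 genes named by members and 46.0% of all 14619 genes. Limb bud peaks named 26 of the 40 genes of this list. Besides Akap9, adenylate cyclase genes had the most tags, with peaks of 19 and 10 tags in intron 3 of Adcy7 (tandem repeat of 35 bp) and 14 tags in intron 12 of Adcy2 (tandem repeat of 28 bp). Pde1a, a phosphodiesterase, had 10 tags, Prkar2a, a regulatory subunit of protein kinase A, had 8, and the guanylate cyclases Gucy1b2 and Gucy2c had 7 each. Of 89 channel genes 8 were named (8.99%, interval 4.63 to 16.7), led by the sodium channel Scn8a with peaks of 11 and 7 tags and the ryanodine receptor Ryr3 with 10 tags. Of 38 glutamate and GABA receptor genes 4 were named (10.53%, interval 4.17 to 24.1), each by a peak of 7 tags.

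Of 62 genes of cell cycle and DNA repair, 7 were named (11.3%, interval 5.58 to 21.5). Prkdc, the DNA-dependent protein kinase, had 11 tags in intron 54 in a tandem repeat of 29 bp. Cdk14 and Fhit had 9 tags, and Cdk19, Mdm4, Brca2 and Fancd2 had 7 each. Of 23 ubiquitin ligases of the HECT class, Hecw1 and Herc6 were named (8.70%, interval 2.42 to 26.8), the latter by a peak of 8 tags. Of the lists made by function, 2, cyclic nucleotide signaling and synaptic adhesion, had an interval above the background of 5.95%, and no set test was run. Both hold long genes, with median spans of 130146 and 334288 bp against 25054 bp for all genes. None of the 8 and 11 members naming genes of these 2 lists had at most 50% of words repeated. Of all 947 members only 2.43% did, so that none among so few says little about these lists. Among families picked by symbol after the values had been seen, 19 of 708 olfactory receptors (2.68%, interval 1.72 to 4.15), 14 of 282 vomeronasal receptors (4.96%, interval 2.98 to 8.16) and 18 of 299 zinc finger genes (6.02%, interval 3.84 to 9.31) were named.

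**Figure D4:**
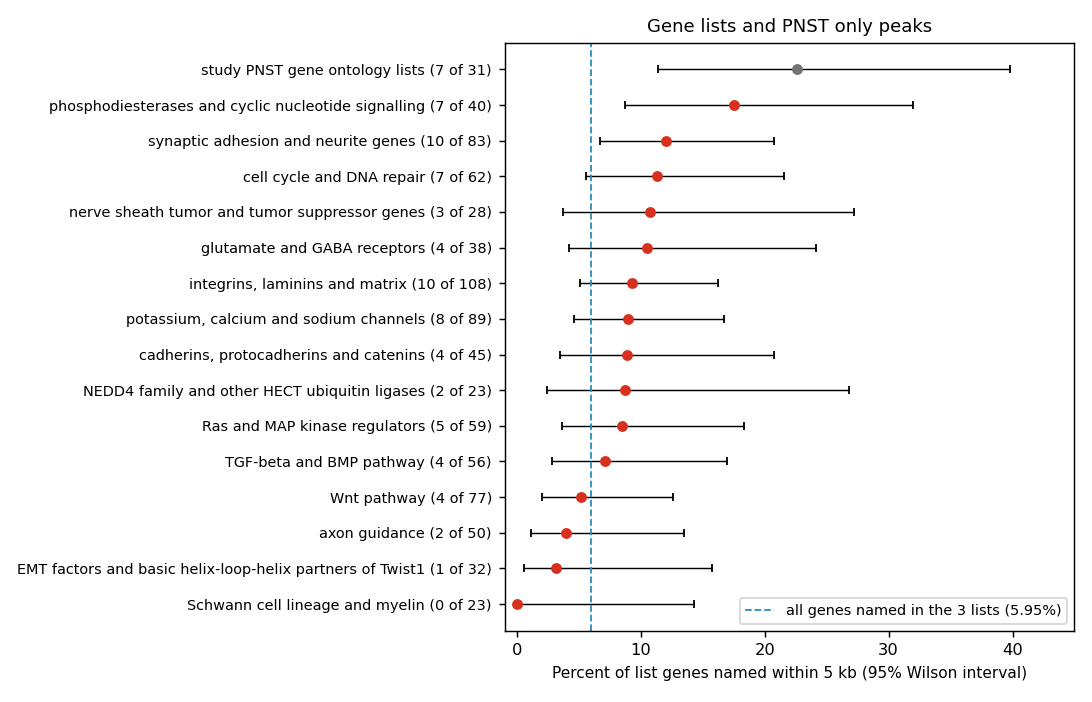
Percent of the genes of each list that were named by a PNST only peak within 5 Kb, with 95% Wilson intervals and the number named of the number found in the peak lists. The dashed line marks the 5.95% of all genes, and the grey point is the study's own list, which was chosen on these samples.

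Genes that the study itself had grouped by ontology in PNST cells were chosen on these samples, so that their share is no independent evidence. Of 31 such genes, 7 were named by a member (22.6%, interval 11.4 to 39.8). Ext1, an enzyme of heparan sulfate synthesis, had the highest fold enrichment of these (24.27) with 10 tags in intron 1, and its peak was mostly single copy (43.4% of words repeated) with 1 E-box. Tnc had 10 tags and Cask, a scaffold kinase of synapses, had 9 tags in intron 10. A further PNST only peak of Cask was 5117 bp away and thus no member. Lims1, an adaptor of integrin-linked kinase, Slc7a11, the cystine transporter, Spp1, which encodes osteopontin, and Postn, which encodes periostin, had 7 tags each. E-boxes were present at Ext1, Lims1, Slc7a11 and Postn and absent from the peaks of Tnc, Cask and Spp1.

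The Spp1 peak lay 2512 bp from the nearest exon start of the gene and had 59.5% of its words repeated, with a median of 2 copies, while the Postn peak had 182 copies. Peaks of Cd44, the hyaluronan receptor, within 5 Kb of the gene were left out by the rule, since limb bud peaks overlapped 98.3% and 100% of their length. The peak of Tgfb2, a growth factor gene, lay 27939 bp away and was likewise no member.

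The genes named by members were often named in the other tissues too, by other peaks. Of the 870 genes, 468 (53.8%) had a limb bud peak and 166 (19.1%) an ECC peak within 5 Kb, 501 (57.6%) had either and 369 (42.4%) had neither. Among all 14619 genes the shares were 41.5%, 12.7% and 46.0% for limb buds, ECCs and either, and the part of gene length in this difference was not tested. The shared genes were 7.72% of the 6061 limb bud genes and 8.93% of the 1858 ECC genes. An ECC peak lay within 1 Kb of 29 members (3.06%, interval 2.14 to 4.36) and a limb bud peak within 1 Kb of 83 (8.76%, interval 7.13 to 10.7), against 1.73% and 9.44% of PNST only peaks over 5 Kb from a gene. The median member was 88925 bp from the nearest ECC peak and 19637 bp from the nearest limb bud peak.

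Across chromosomes, members were most frequent per Mb on chromosomes 19 (0.538, 33 members), 15 (0.512, 53 members) and 5 (0.511, 78 members). They were least frequent on chromosomes Y (0.0629, 1 member), 18 (0.187, 17 members) and X (0.270, 45 members). PNST only peaks over 5 Kb from a gene were most frequent on chromosome X (3.16 per Mb). The order depends on the scale. Per 100 genes named in the lists, members were most frequent on chromosomes 15 (10.3) and 5 (8.76) and least frequent on chromosomes 18 (4.29) and 11 (4.37), while the single member of chromosome Y came to 8.33. Windows of 1 Mb with many members included those of Cenpo and Ncoa1 on chromosome 12 (6 members) and D15Ertd621e and Tatdn1 on chromosome 15 (5 members), and the 4 peaks each of Cenpo and D15Ertd621e lay in tandem repeats.

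The 23 mostly single copy members had the fewest repeated words, by exact copies of 32 bases. The class is not free of repeats, since the peaks of Ccdc146, Zfr and Ext1 hold runs of GA, T and A. The 23 members held 7 to 92 tags with a median of 8 and a fold enrichment of 15.13, none reached a p-value of 1e-10, and 10 held an E-box (43.5%, interval 25.6 to 63.2). In 17 the summit was in an intron. Apart from Sfi1, Eif4enif1, Ext1, Lama2, Ctnnb1 and Tmcc1, they included Ccdc146 with 9 tags at 27.31, Zbtb16, a zinc finger transcription factor gene, with 8 tags at 21.24 in intron 3, and Zfr, a zinc finger gene for RNA binding, with 8 tags at 21.24 in intron 6. Pisd, an enzyme of phospholipid synthesis, had 14 tags in intron 7, Cpe, the carboxypeptidase E gene, had 7 tags and 2 E-boxes in intron 6, and Fut8, a fucosyltransferase gene, had 7 tags and 4 E-boxes in intron 10. No repeated word at all was found in 5 of them, the peaks of Eif4enif1, Ctnnb1, Cpe, Lama2 and Tmcc1.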

How the data were processed

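The authors placed single reads on mm9 by Eland v2 and Bowtie and ran MACS 1.4.2 separately for every tissue. Per the file headers the band width was 300 bp, tags were 50 bp long and peaks needed a p-value of 1.00e-05 or smaller. Measures used of each deposited peak were a count of tags without scaling to depth, a fold enrichment (ratio) over local background, and a p-value score (10 times −log10). The headers gave 3149934 to 14893391 tags after the duplicate filter. The deposited positions, lengths, summits and gene distances are in bp.

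The members and the gene lists were chosen with earlier results of these data known. Overlaps, medians and shares were computed with Python 3.11.15, numpy 2.4.6, pandas 2.3.3 and scipy 1.17.1, and the code was tested on simulated data. No test between groups was run, because each tissue has 1 sample. Sequences were read from the mm9 genome (NCBIM37). Words of 32 bases were counted over that genome on both strands. Summits were placed with protein-coding transcripts of GENCODE vM1, and distances from a summit to a TSS were measured to these transcripts. Genes carry the names of the lists.

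Named were the 10 members with the most tags, the 10 with the highest fold enrichment, genes with 3 or more members, up to 6 genes for each of 17 lists by their tags, genes of the study's PNST lists and members at the limits. Further genes, among them coding exon, promoter and single copy members, and the classes of repeats were chosen after their values had been seen. Alternatives changed the p-value, fold enrichment, overlap, distance, merging, gene named, annotation and E-box window. Reads, the control library and expression data were not used here. Some named genes and 1 of the gene lists are not reported here.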

Additional observations from a re-analysis of the deposited data

How the results depend on the processing

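Limits of the design come first: 1 sample for each tissue, tissues sequenced to different depths, and mostly peaks of 7 or 8 tags. No paired analysis was possible because each tissue has 1 sample and no replicate numbers. Of 81 values recomputed under other settings, 41 were counted as unchanged and 40 as changed. A value with an interval counted as unchanged inside that interval, and any other value within 1.5 times the value given above. Some intervals were narrow, as for the median fold enrichment (15.17 to 15.17). A value counted as changed may thus differ little, such as a median fold enrichment of 15.13. The cause of these differences was not tested, except that stricter limits on distance, fold enrichment and repeated words keep fewer peaks by their construction.

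With a p-value of 1e-10 or smaller in all 3 lists, 44 peaks named 41 genes, with medians of 19.5 tags, 286.5 bp and a fold enrichment of 18.2. This limit also removed ECC and limb bud peaks, so that peaks shared in the full lists can count as PNST only. Only 30 of the 947 members had such a p-value, so the 44 peaks are not a subset of the members. In the 44 peaks the share with an E-box was 34.1%, that of intron summits 77.3% and that of coding exon summits 6.82%. Of them 22.7% lay within 5 Kb of a TSS, and 14.6% of their genes were also named in ECCs or limb buds. With a fold enrichment of at least 20, 102 peaks named 103 genes, with a median length of 124 bp, a median fold enrichment of 21.24, an E-box in 38.2%, intron summits in 80.4%, coding exon summits in 0% and 52.4% of genes also named in another tissue. A distance limit of 1 Kb gave 186 peaks and 178 genes, with 78.5% intron and 9.14% coding exon summits and 52.2% of genes also named elsewhere. A limit of 10 Kb gave 1479 peaks and 1376 genes, with 63.7% intron summits, 18.7% within 5 Kb of a TSS and 51.3% of genes also named elsewhere. Counting a peak within 1 Kb as shared left 847 peaks, and 52.8% of their genes were also named elsewhere. An E-box within 50 bp of the summit was found in 39.9% of the 947 members and in 39.2% of all PNST peaks on assembled chromosomes.

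Alternatives on repeated sequence and on the TSS were chosen after seeing the data. With at most 50% of words repeated, 23 peaks named 24 genes, with a median fold enrichment of 15.13, an E-box in 43.5%, coding exon summits in 4.35%, 30.4% within 5 Kb of a TSS and 54.2% of genes also named elsewhere. With a TSS within 5 Kb in place of the deposited distance there were 325 peaks, with intron summits in 47.7% and coding exon summits in 6.46%. Any overlap counted as shared left the 947 members as they were. Of the 17 gene lists, 16 had a lower share at a p-value of 1e-10 and with at most 50% of words repeated, and naming only the nearer gene changed none. Tags per 100 bp had a median of 5.38 in members and 5.42 in PNST only peaks over 5 Kb from a gene, a different unit from tags.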
